A study of Mus musculus with 12 samples.

Results

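Spleen RNA of mice without *Norad* was compared with that of *Norad*+/+ mice over every gene whose mean FPKM (fragments per kilobase of transcript, scaled to the depth of each library) reached 1 across the 6 spleen libraries. This rule took in 12397 of the 24062 genes in the table and used no genotype difference. RNA-seq of poly(A)-selected RNA covered spleens of 3 *Norad*-/- and 3 *Norad*+/+ males, all of strain C57BL/6 and 10 weeks old, with brains of the same genotypes as the other tissue of the 12 libraries in the series. No further allele or treatment is given for either group. The deletion was made in C57BL/6J oocytes with Cas9 and a pair of guide RNAs flanking the locus, and lines from several founder animals were kept by backcrossing. Which line each mouse came from is not given in the sources used here.

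*Norad* (noncoding RNA activated by DNA damage) is an abundant cytoplasmic long noncoding RNA. It carries many copies of the PUMILIO response element (PRE), the 8-base sequence UGUANAUA bound by the PUMILIO proteins, which recruit the CCR4-NOT deadenylase and lower the stability and translation of the mRNAs they bind. The mouse spleen filters blood in the red pulp, where macrophages recycle iron from old red cells, and holds B and T lymphocytes in the white pulp. In mice it also makes red cells, platelets and granulocytes throughout life.

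The PREs of the transcripts below are shown because *Norad* was the deleted RNA and the other 3 genes were the only ones past the adjusted threshold in spleen under the settings reported here first. The PRE is in capitals in the DNA letters of the GENCODE M21 transcripts (GRCm38), 5′ to 3′ on the transcript strand, with 8 bases of transcript on each side. The *Norad* transcript of 4915 bases held 11 PREs and 0 copies of the reverse complement, and its first 3 are given.
Norad base 651, chr2:156392314-156392337, minus strand: aagtcctgTGTATATAatatgaaa
Norad base 1147, chr2:156391818-156391841, minus strand: aaacatgcTGTAAATAcctttttg
Norad base 1336, chr2:156391629-156391652, minus strand: cttttcttTGTACATAgtgtatgt
Sema6d 3′ UTR base 1314, chr2:124666612-124666635, plus strand: cagtgaacTGTAAATAccacatgt
Sema6d 3′ UTR base 2397, chr2:124667695-124667718, plus strand: tgtggatgTGTAAATAatatgtac
Kbtbd7 3′ UTR base 11, chr14:79428802-79428825, plus strand: gggttcttTGTAAATAttttgaga
Kbtbd7 3′ UTR base 1498, chr14:79430289-79430312, plus strand: acaaatggTGTACATAtacagatg
Wipf1 3′ UTR base 192, chr2:73432206-73432229, minus strand: gtttatgtTGTATATAttcctgag
The longest annotated 3′ UTRs of *Sema6d*, *Kbtbd7* and *Wipf1* were 2464, 2237 and 2803 bases long. Of 20453 genes with an annotated 3′ UTR of any length, 23.4% held at least 1 PRE on the transcript strand.

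Depth was read from the FPKM step that a single read makes at single-transcript genes, and came to 31.5 to 33.7 M (mega) reads in *Norad*+/+ and 32.7 to 35.2 M in *Norad*-/- libraries. The defining markers of spleen were present in every library, with *Cd79a* of B cells at 325 to 447 FPKM, *Cd3e* of T cells at 40.3 to 78.4, *Tlx1*, the factor required to form the organ, at 10.2 to 21.7, and *Spic* of red pulp macrophages at 70.9 to 98.6. The libraries did not sort fully by genotype. The first principal component took 63.8% of the variance and ran from *Norad*+/+ replicate 3 (-0.650) over *Norad*+/+ replicate 2 (-0.301), *Norad*-/- replicate 3 (-0.0334) and *Norad*+/+ replicate 1 (-0.000441) to *Norad*-/- replicates 1 (0.474) and 2 (0.510). The nearest library to *Norad*-/- replicate 3 was *Norad*+/+ replicate 1 (Spearman correlation over genes 0.977), and *Norad*-/- replicates 1 and 2 were nearest each other (0.984). *Norad*+/+ replicate 3 also held markers of exocrine pancreas and liver. Its summed FPKM of the pancreas list was 476 against 3.44 to 9.69 in the other libraries, and that of the liver list 146 against 0.260 to 1.023, with *Alb* at 0 in all others. All 10 tested pancreas genes and all 8 tested liver genes therefore had log2 fold changes below 0 (medians -2.73 and -2.34, with 0 of them at an unadjusted p of 0.05 or less), and without that library both medians lay at 0.00. All tests below used limma on log2(FPKM + 0.1), and every log2 fold change is *Norad*-/- against *Norad*+/+. Levels of 3 libraries are given in the order of replicates 1, 2 and 3, and this numbering does not order the mice.

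At an adjusted p of 0.05 or less, 1 gene was called higher and 3 were called lower in *Norad*-/- spleen, which is 0.00807% and 0.0242% of the genes tested. *Norad* itself (2900097C17Rik in the table, chr2:156388065-156392979) stood at 62.0, 42.9 and 56.3 FPKM in *Norad*+/+ and at 0.00622, 0.0173 and 0 FPKM in *Norad*-/- libraries. All 6 labels thus matched the deleted gene, which fell by 8.95 on the log2(FPKM + 0.1) scale (standard error 0.17, adjusted p = 1.99e-05), a size that the pseudocount limits.

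*Sema6d* encodes a transmembrane semaphorin, a family first known from axon guidance (chr2:124089969-124667770). It had 10.4, 15.4 and 11.95 FPKM in *Norad*+/+ and 1.47, 1.64 and 1.89 in *Norad*-/- spleen. The lowest *Norad*+/+ mouse lay far above the highest *Norad*-/- mouse, and the gene fell by 2.83 on the log2 scale (standard error 0.17, adjusted p = 0.0135), or 7.13-fold. *Kbtbd7*, which encodes a substrate adaptor of a cullin ubiquitin ligase (chr14:79426511-79431036), had 9.55, 9.86 and 9.29 FPKM against 4.62, 4.196 and 4.49. Both groups were tight, and the gene fell by 1.09 (standard error 0.08, adjusted p = 0.0306), or 2.13-fold. *Wipf1*, whose protein binds WASP, a regulator of actin in blood cells (chr2:73429610-73529734), had 67.9, 64.5 and 64.0 FPKM against 119, 119 and 113. It was the gene that rose, by 0.84 on the log2 scale or 1.78-fold, with a standard error of 0.07 (adjusted p = 0.0469). In brain the same genes had log2 fold changes of 0.58 for *Sema6d*, 0.35 for *Kbtbd7* and -0.45 for *Wipf1*, and the difference between the tissues did not pass for any of them (adjusted p of the interaction = 0.15, 0.21 and 0.20). Of the 4 genes 3 lie on chromosome 2, which held 945 of the genes tested.

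**Figure D1:**
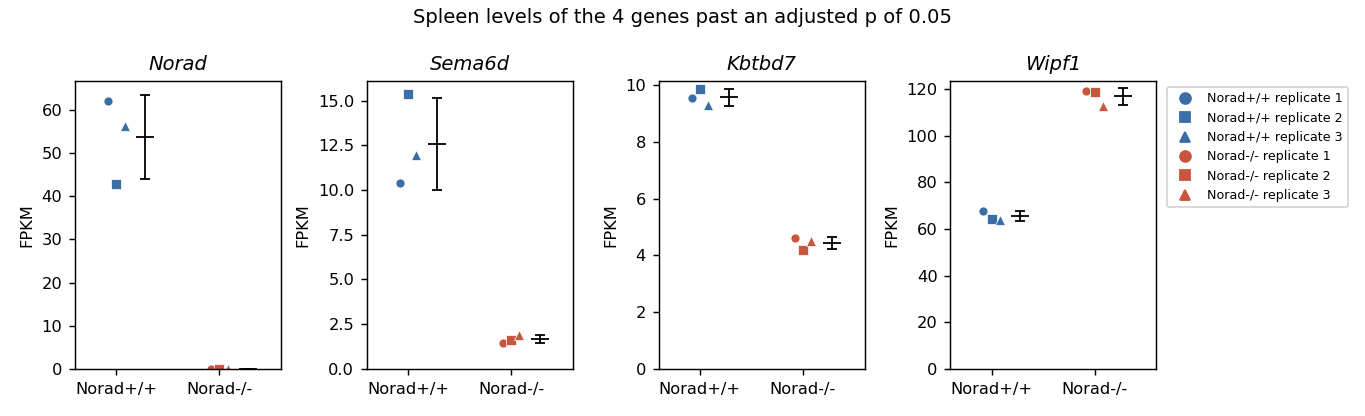
FPKM (vertical axes, from 0) of the 4 genes past an adjusted p of 0.05 in each spleen library, by genotype (horizontal axes). Points are mice, and bars at the side are the mean and SD of 3 mice. The *Norad*-/- points of *Norad*, *Sema6d* and *Kbtbd7* lie below all *Norad*+/+ points, and those of *Wipf1* lie above.

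Of 17 other settings of the fit, *Norad* passed in 17, *Sema6d* in 12, *Kbtbd7* in 8 and *Wipf1* in 7. Their log2 fold changes ranged over those settings from -3.18 to -2.34 for *Sema6d*, from -1.13 to -0.96 for *Kbtbd7* and from 0.76 to 0.96 for *Wipf1*, so the sizes moved less than the calls. The adjusted threshold was crossed by 93 genes without *Norad*-/- replicate 3, 20 without *Norad*+/+ replicate 1, 5 without *Norad*+/+ replicate 3 and 2 without any of the other 3 libraries.

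Named next are the genes of smallest p in each direction among those with a symbol whose groups did not overlap. Non-overlap was thus a condition of the choice and is no result. It held for 11.6% of all genes on the higher and 14.9% on the lower side. These genes missed the adjusted threshold of limma (adjusted p from 0.092 to 0.129). Below *Norad*+/+ lay *Csf3r*, the receptor of the growth factor G-CSF on neutrophils, with 36.7, 58.8 and 53.9 FPKM against 13.99, 14.7 and 16.3 (log2 fold change -1.70). *Gp49a*, an inhibitory receptor of myeloid cells, had 8.20, 9.65 and 9.05 against 3.63, 4.36 and 4.56 (-1.08). *Klrb1c*, a receptor of natural killer cells, had 11.7, 12.96 and 14.3 against 6.05, 7.12 and 6.73 (-0.96). With them ranked *Hs3st2*, a heparan sulfate sulfotransferase (-1.33), *Ammecr1* (-1.67), *3110082I17Rik* (-0.84) and *Snord100* (-0.92), a small nucleolar RNA gene inside *Rps12* whose reads cannot be told apart from those of its host.

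Above *Norad*+/+ lay several genes of lymphocytes. *Sit1*, an adaptor that tunes T cell receptor signals, had 6.29, 6.11 and 5.80 FPKM against 10.4, 9.80 and 10.2 (log2 fold change 0.73). *Ccr9*, a homing receptor for the gut and thymus, had 5.32, 4.86 and 4.71 against 9.88, 10.1 and 8.50 (0.92). *Cd69*, a retention receptor and early activation marker, had 24.8, 23.1 and 22.2 against 34.8, 37.4 and 33.6 (0.59). The others were *Znrf1*, a ubiquitin ligase (0.96), *Ado*, a thiol dioxygenase (0.75), *Zfp282*, a zinc finger protein (0.68), *Sesn1*, a sestrin (0.90), *Hspa1a*, an inducible HSP70 chaperone (2.44), and *Mir8119* (0.63), a microRNA gene inside *Lck* whose reads cannot be told apart from those of its host. *Hspa1a* met the mean of 1 FPKM only through its *Norad*-/- levels.

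At an unadjusted p of 0.05 or less stood 920 higher genes (7.42%) and 1680 lower genes (13.6%), and the median log2 fold change of all genes tested was -0.02. Higher genes were thus 35.4% of these, but 57.2% after rescaling to TPM and 56.5% after quantile normalization, which moved the median of all genes to 0.10 and 0.07. Of the list medians below, the sign turned with the scaling for natural killer cell genes (0.02 with TPM), mitochondrial carriers (0.07 with TPM, 0.02 with quantile normalization) and mitochondrial dynamics (0.10 and 0.04), and the others are to be read against these shifts. Every list count below, except those with the red cell covariate, is to be read against the 7.42% higher and 13.6% lower of all genes. Counts of non-overlapping groups are to be read against 11.6% on the higher and 14.9% on the lower side. The largest changes were then taken among genes at this unadjusted p that had non-overlapping groups and averaged 10 FPKM or more. After *Norad*, the lower side of this selection was led by genes with wide spreads. *Pklr*, the pyruvate kinase of red cells and liver, had 8.05, 18.9 and 26.7 FPKM against 0.365, 0.126 and 6.39 (log2 fold change -4.19, adjusted p = 0.185). *Asns*, asparagine synthetase, had 11.6, 22.6 and 37.8 against 2.14, 1.73 and 10.6 (-2.61). *Chac2*, which degrades glutathione, followed (-2.15), and then *Ube2l6*, a conjugating enzyme for ISG15 (-2.03). At each of the 4 the highest *Norad*-/- library was replicate 3. The higher side was led by *Ccr6*, a chemokine receptor of B cells and some T cells, with 10.48, 6.96 and 36.6 against 51.5, 40.1 and 46.4 (1.71). *Norad*+/+ replicate 3 lay close to the *Norad*-/- mice there. *Rin3*, a Rab guanine nucleotide exchange factor, had 5.27, 5.13 and 4.83 against 5.60, 19.0 and 24.7 (1.43), with *Norad*-/- replicate 1 close to the *Norad*+/+ mice. *S1pr4*, a sphingosine phosphate receptor of lymphocytes (1.346), *Zap70*, the kinase behind the T cell receptor (1.24), and *Trim65*, a ubiquitin ligase (1.22), completed the 5.

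**Figure D2:**
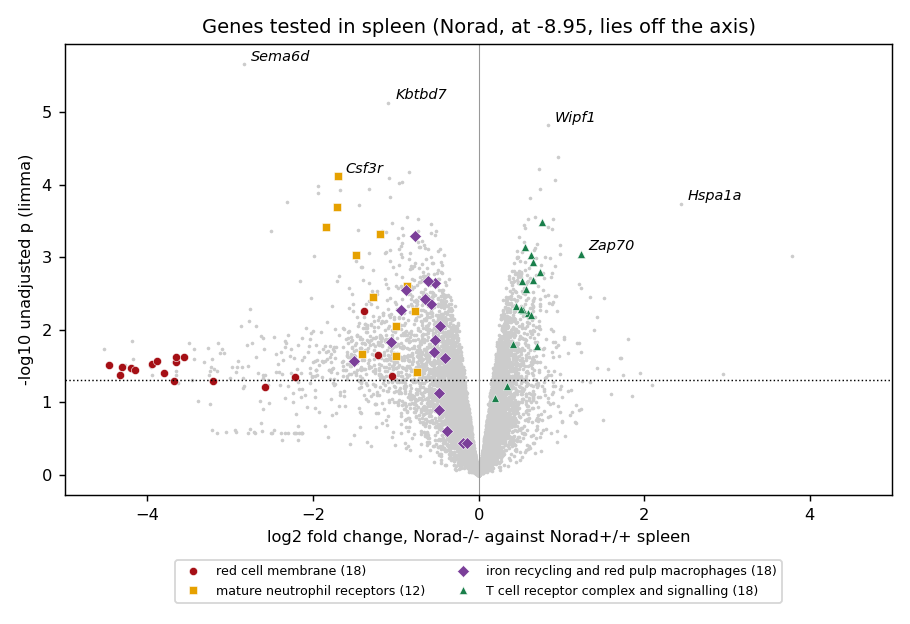
Log2 fold change (horizontal axis) against −log10 unadjusted p from limma (vertical axis) for genes tested in spleen, with *Norad* off the axis. Coloured marks are 4 gene lists and the dotted line is an unadjusted p of 0.05. The T cell receptor list lies on the right, the mature neutrophil list on the left at small p, and the red cell membrane list far to the left near the dotted line.

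Genes of T cells were higher across all 3 *Norad*-/- spleens. Of 18 genes of the T cell receptor complex and its signalling, all tested, 16 were higher and 0 lower at an unadjusted p of 0.05 or less, against 7.42% higher over all genes, and 0 passed the adjusted threshold. Groups did not overlap at 17 of the 18, against 11.6% over all genes. The median log2 fold change was 0.58, against -0.02 for all genes. By level the list is led by *Cd2*, an adhesion receptor, with 116, 98.2 and 98.5 FPKM against 151, 148 and 129 (log2 fold change 0.45). *Tcf7*, the transcription factor of naive and memory T cells, had 105, 83.6 and 78.6 against 115, 128 and 113 (0.42). *Lck*, the first kinase of the receptor cascade, had 61.6, 54.9 and 60.6 against 87.5, 94.5 and 80.5 (0.57, standard error 0.09, adjusted p = 0.138). *Cd8b1*, the beta chain of the CD8 coreceptor, had 50.6, 63.9 and 59.5 against 101, 89.5 and 73.9 (0.60). In each of these 4 the lowest *Norad*-/- mouse lay above the highest *Norad*+/+ mouse. Both the helper lineage coreceptor *Cd4* (0.66) and the killer lineage coreceptor *Cd8a* (0.53) took part, the latter pair named after their values were seen.

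T cell homing, activation and subset genes behaved alike. Of 18 tested, 16 were higher and 1 lower at an unadjusted p of 0.05 or less, with a median of 0.57. *S1pr1*, the receptor for exit into the circulation, had 133, 110 and 100 FPKM against 149, 144 and 137 (log2 fold change 0.34), and *Klf2*, a factor of quiescence and trafficking, 67.3, 72.6 and 75.6 against 106, 101 and 84.0 (0.43). The member on the other side was *Cd44*, an adhesion receptor that marks antigen-experienced T cells and is also made by myeloid cells, with 71.0, 73.5 and 76.1 against 61.5, 62.5 and 61.0 (-0.25). In bulk tissue, fewer cells of a type and less RNA per cell cannot be told apart, and neither can more cells and more RNA.

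B cell genes moved less. Of 20 B cell identity and receptor genes 6 were higher and 0 lower at an unadjusted p of 0.05 or less, with a median of 0.17. Groups did not overlap at 5. Over all genes 7.42% were higher, and 11.6% did not overlap on the higher side. The median was 0.28 without *Norad*+/+ replicate 1 and 0.09 without *Norad*+/+ replicate 3. *Cd79b*, a signalling chain of the B cell receptor, had 380, 360 and 369 FPKM against 485, 484 and 462 (log2 fold change 0.37). *Cd79a*, the partner chain of *Cd79b*, overlapped, with 421, 325 and 360 against 411, 447 and 356. With each library taken on its own, the mean of the T cell receptor list relative to that of the B cell list (each as mean log2(FPKM + 0.1) minus its mean over the 6 libraries) was -0.27, -0.23 and -0.12 in *Norad*+/+ and 0.22, 0.24 and 0.16 in *Norad*-/- mice. The genotypes thus did not overlap on this within-library measure, which was defined with the values known. Of 12 plasma cell genes 3 were higher (median 0.20, with 0.09 without *Norad*-/- replicate 2 and 0.35 without *Norad*-/- replicate 3). Among them was *Igj*, the joining chain of secreted antibodies, with 264, 474 and 431 against 523, 625 and 550 (0.58). *Irf4* (0.37) and *Derl3* (0.35) complete the count. After *Igj* the most abundant members were *Sec11c* (-0.08), *Xbp1* (-0.05) and *Mzb1* (0.28), all with overlapping groups.

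Genes of antigen presentation were higher by small amounts. The counts below stand against 7.42% higher and 13.6% lower over all genes. Of 11 MHC class II genes, 2 of which the B cell list also holds, 7 were higher and 0 lower (median 0.29), with *Cd74*, the invariant chain, at 3600, 3282 and 3180 FPKM against 3955, 4561 and 3868 (log2 fold change 0.30). *H2-Ab1* had 828, 741 and 855 against 1125, 1158 and 883 (0.38). Of 18 MHC class I genes 7 were higher and 0 lower (median 0.25), and all 18 lay above 0. *H2-K1* had 878, 846 and 884 against 1204, 1219 and 1041 (0.41), and *H2-D1* 523, 488 and 525 against 593, 632 and 572 (0.23). Reads of H2 genes can be split among near-identical copies. Of 16 dendritic cell genes 7 were higher and 0 lower (median 0.32). They included *Ccr7*, the receptor that guides dendritic cells and T cells to lymphoid tissue, with 50.7, 44.1 and 47.4 against 67.5, 68.5 and 54.1 (0.41). Beside it among the most abundant members, *Irf8* (0.19), *Itgax* (0.19) and *Bst2* (0.03) had an unadjusted p above 0.05.

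Natural killer cell genes were called about as often as all genes. Of 20 tested, 2 were higher and 4 lower at an unadjusted p of 0.05 or less, against 7.42% and 13.6% of all genes, with a median of -0.10 (-0.04 without *Norad*-/- replicate 2). *Il2rb*, the receptor chain for interleukins of killer and memory T cells, had 29.5, 33.7 and 33.2 FPKM against 63.8, 43.0 and 61.4 (log2 fold change 0.78), and *Ccl5*, a chemokine of killer and memory T cells, had 99.5, 110 and 102 against 123, 146 and 122 (0.33). *Gzma*, a granzyme, had 45.6, 45.9 and 47.7 against 42.0, 33.1 and 38.6 (-0.30). The 3 other lower members were *Klrb1c*, described above, *Gzmb* (-0.81) and *Klra9* (-0.41), the last pair named because they complete the count.

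Genes of mature neutrophils, a list of receptors and some secreted proteins, were lower in all 3 *Norad*-/- spleens. Of 13 listed genes 12 were tested, *Ly6g* not being in the table, and 12 were lower at an unadjusted p of 0.05 or less, against 13.6% lower over all genes, while 0 passed the adjusted threshold. Groups did not overlap at 10 of them, against 14.9% over all genes. The median log2 fold change was -1.24. *Il1b*, which encodes interleukin-1 beta, had 29.5, 29.7 and 31.0 FPKM against 16.8, 13.1 and 10.1 (log2 fold change -1.20, standard error 0.18, adjusted p = 0.129). *Cxcr2*, the chemokine receptor that draws neutrophils from the marrow, had 18.8, 26.6 and 27.3 against 13.5, 11.3 and 14.7 (-0.86). *Retnlg*, a secreted resistin-like protein of neutrophils, overlapped, with 26.5, 69.9 and 73.6 against 16.6, 14.5 and 29.8 (-1.41). *Csf3r*, given above, is the second of this list by level.

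The list of granule proteins, most of which neutrophil precursors make in the marrow and spleen before the mature receptors appear, was distributed differently. It also holds *S100a8* and *S100a9*, which this description does not cover. All 14 lay below 0 with a median of -1.95, but 4 were lower at an unadjusted p of 0.05 or less and at 1 the groups did not overlap. *Ngp*, a granule protein, had 77.8, 368 and 227 FPKM against 42.0, 9.09 and 354, and *Lcn2*, a siderophore-binding lipocalin, 28.6, 113 and 81.0 against 11.7, 4.39 and 90.5. In both *Norad*-/- replicate 3 lay among the *Norad*+/+ mice. *S100a8* and *S100a9*, the subunits of calprotectin, had log2 fold changes of -2.04 and -2.03. With them *Mmp9* (-1.41), the member whose groups did not overlap, and *Mmp8* (-1.93), both metalloproteinases, complete the 4. The median was -2.97 without *Norad*-/- replicate 3 and -1.17 without *Norad*-/- replicate 2. The list mean of granule proteins was 1.10 in *Norad*-/- replicate 3 and -1.47 and -2.45 in replicates 1 and 2. That of the mature neutrophil list was -0.37, -0.73 and -0.77 in the same order, all below its *Norad*+/+ range of 0.19 to 0.85.

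**Figure D3:**
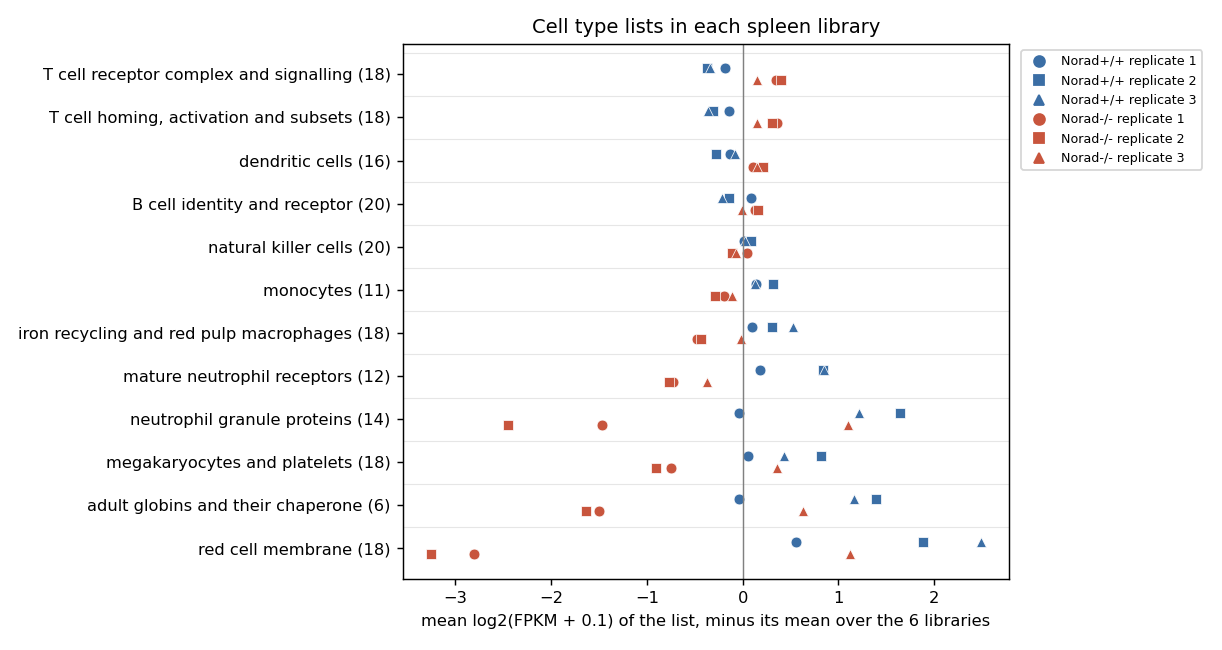
Mean log2(FPKM + 0.1) of each cell type list minus its mean over the 6 spleen libraries (horizontal axis), by list with the number of genes tested (vertical axis). Each mark is 1 mouse, and its shape is the replicate number. T cell lists and the mature neutrophil list separate the genotypes, while *Norad*-/- replicate 3 lies among the *Norad*+/+ mice for granule proteins, platelets, globins and red cell membrane genes.

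Genes of red pulp macrophages and iron recycling were lower by moderate amounts. All 18 lay below 0 (median -0.53), 13 were lower and 0 higher at an unadjusted p of 0.05 or less, and at 12 the groups did not overlap. Over all genes 13.6% were lower, and 14.9% did not overlap on the lower side. *C1qa*, a complement subunit made by tissue macrophages, had 258, 269 and 251 FPKM against 181, 159 and 203 (log2 fold change -0.52). *Hmox1*, the oxygenase that opens heme, overlapped, with 301, 290 and 459 against 220, 197 and 345, as did the ferritin chains *Fth1* (-0.39) and *Ftl1* (-0.19). Of 11 monocyte genes 5 were lower and 0 higher (median -0.35, or -0.15 without *Norad*-/- replicate 2), with groups that did not overlap at all 5. *Csf1r*, the receptor that macrophages and monocytes need to survive, had 107, 114 and 114 against 76.3, 81.0 and 88.7 (-0.45), and *Treml4*, a receptor of patrolling monocytes and some dendritic cells, 62.1, 55.4 and 70.4 against 36.6, 35.1 and 41.7 (-0.72). The others of the 5, named to complete the count, were *F13a1* (-1.93), *Clec4a3* (-0.76) and *Ccr2* (-0.63). *Ly6c2*, a marker of classical monocytes, overlapped, with 98.5, 136 and 88.3 against 103, 102 and 122.

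Red cell genes were far lower in 2 of the 3 *Norad*-/- spleens. Of 18 red cell membrane genes, all below 0, 15 were lower at an unadjusted p of 0.05 or less with a median log2 fold change of -3.66, but the groups did not overlap at 1. *Slc4a1*, the anion exchanger band 3, had 129, 333 and 467 FPKM in *Norad*+/+ and 5.44, 2.49 and 180 in *Norad*-/- spleen (log2 fold change -4.31, standard error 1.57, adjusted p = 0.21). *Norad*-/- replicate 3 thus exceeded *Norad*+/+ replicate 1 at this gene, while replicates 1 and 2 lay more than an order of magnitude lower. *Epb4.1*, the membrane skeleton protein 4.1 that many tissues make, was the member whose groups did not overlap, with 64.1, 119 and 124 against 33.0, 29.6 and 54.3 (-1.38). The summed FPKM of the list ran from 558 to 1890 in *Norad*+/+ and was 80.8, 71.0 and 783 in *Norad*-/- mice.

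In the other red cell lists *Norad*-/- replicate 3 again lay above *Norad*+/+ replicate 1, and *Norad*-/- replicates 1 and 2 were the lowest libraries. Of 9 late red cell enzymes and remodelling genes 7 were lower (median -3.10), with *Car2*, a carbonic anhydrase, at 233, 628 and 839 FPKM against 16.8, 10.9 and 312. Of 14 erythroid regulators and receptors 9 were lower (median -2.16), with *Tfrc*, the transferrin receptor, at 33.0, 71.8 and 101 against 11.6, 9.50 and 41.7. Of 12 heme synthesis genes 7 were lower (median -1.66), with *Alas2*, the first enzyme of the erythroid pathway, at 184, 451 and 429 against 41.9, 37.5 and 205. Of 7 globin genes and their chaperone 6 were tested, *Ahsp* not being in the table, and 4 were lower (median -1.81). *Hbb-b1* had 3897, 10172 and 8619 against 1278, 1147 and 5446. Both the beta globin genes and the alpha globin genes *Hba-a1* and *Hba-a2* appear in the table as gene models with nearly equal values. They are thus not separate measurements. The median of the red cell membrane list was -5.22 without *Norad*-/- replicate 3 and -2.82 without *Norad*-/- replicate 2. Platelet genes shared the pattern, with 6 of 18 megakaryocyte genes lower, a median of -0.92 and *Ppbp*, a platelet chemokine, at 106, 180 and 144 against 51.2, 35.5 and 125.

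Genes of DNA replication and chromosome segregation were lower, most of all in *Norad*-/- replicates 1 and 2. As in the red cell lists, the list means of *Norad*-/- replicate 3 exceeded those of *Norad*+/+ replicate 1. They were -0.02 against -0.05 for MCM and licensing, 0.06 against -0.07 for kinetochore and 0.07 against -0.07 for spindle checkpoint genes. For Fanconi genes the order was the other way (-0.10 against -0.02). Over all genes 13.6% were lower, and 14.9% did not overlap on the lower side. Of 19 genes of the MCM helicase and origin licensing 16 were lower and 0 higher (median -1.06), and at 10 the groups did not overlap. *Mcm6*, a helicase subunit, had 38.3, 56.0 and 76.1 FPKM against 26.5, 26.7 and 37.6 (log2 fold change -0.87). Of 22 kinetochore and centromere genes 17 were lower (median -1.18), and at 8 the groups did not overlap. *Cenpa*, the centromeric histone, had 16.01, 25.7 and 37.3 against 10.4, 9.14 and 17.4 (-1.06). *Hjurp*, the most abundant of this list, overlapped (-0.25). Of 18 genes of the spindle checkpoint and chromosomal passenger complex 15 were lower (median -1.21), and at 7 the groups did not overlap. *Incenp*, the scaffold of the passenger complex, had 25.3, 41.1 and 54.1 against 15.7, 15.5 and 25.9 (-1.05). The more abundant *Bub3* overlapped (-0.14). Cohesin and condensin, which also act outside mitosis, had a median of -0.31 and 13 of 23 genes lower (-0.21 without *Norad*+/+ replicate 3). *Rad21*, the cohesin subunit that separase cuts, had 77.0, 91.1 and 101 against 65.6, 63.8 and 80.2 (-0.36). Of 22 tested genes of the Fanconi pathway and homologous recombination 11 were lower and 0 higher (median -0.34). *Rbbp8*, the most abundant, had overlapping groups, with 11.4, 8.08 and 18.5 against 5.29, 9.49 and 9.15 (-0.62). *Blm*, a helicase of recombination, had the largest fall of the list, with 7.30, 9.67 and 12.9 against 3.31, 2.86 and 5.02 (-1.40).

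The mean of the red cell membrane list was used as a covariate to ask which differences were seen at a given level of red cell transcripts. Of the 12397 genes tested, 444 were then lower and 294 higher at an unadjusted p of 0.05 or less. *Norad* was the gene past the adjusted threshold. List counts with the covariate are to be read against these numbers, not against the 7.42% and 13.6% of the fit without it. List medians moved from -1.06 to -0.27 for MCM and licensing genes, from -1.18 to -0.26 for kinetochore genes and from -1.21 to -0.26 for the spindle checkpoint. Those of megakaryocytes (0.05), globins (0.01) and granule proteins (0.60) reached or passed 0. That of the red cell membrane list (-0.02) lay near 0 by construction, since the list is the covariate. The other red cell lists vary with it across libraries, so their move to near 0 is no separate result. The mature neutrophil genes stayed lower, with a median of -0.57 and 7 of 12 lower at an unadjusted p of 0.05 or less, as did red pulp macrophage genes, with a median of -0.30 and 4 of 18 lower. The T cell receptor list kept a median of 0.36 with 8 of 18 higher, and the homing list 0.26 with 5 of 18 higher. B cell (-0.02) and plasma cell (-0.03) medians crossed 0. Of the antigen presentation lists, 0 of 11 MHC class II genes (median 0.09), 0 of 18 MHC class I genes (0.10) and 2 of 16 dendritic cell genes (0.15) were then higher at an unadjusted p of 0.05 or less. *Csf3r* (log2 fold change -1.42), *Il1b* (-1.53), *Lck* (0.43) and *Zap70* (1.23) kept an unadjusted p of 0.05 or less. The covariate is itself measured in the same libraries and is lower in *Norad*-/- replicates 1 and 2, and whether it stands for cells, blood or RNA quality was not tested.

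**Figure D4:**
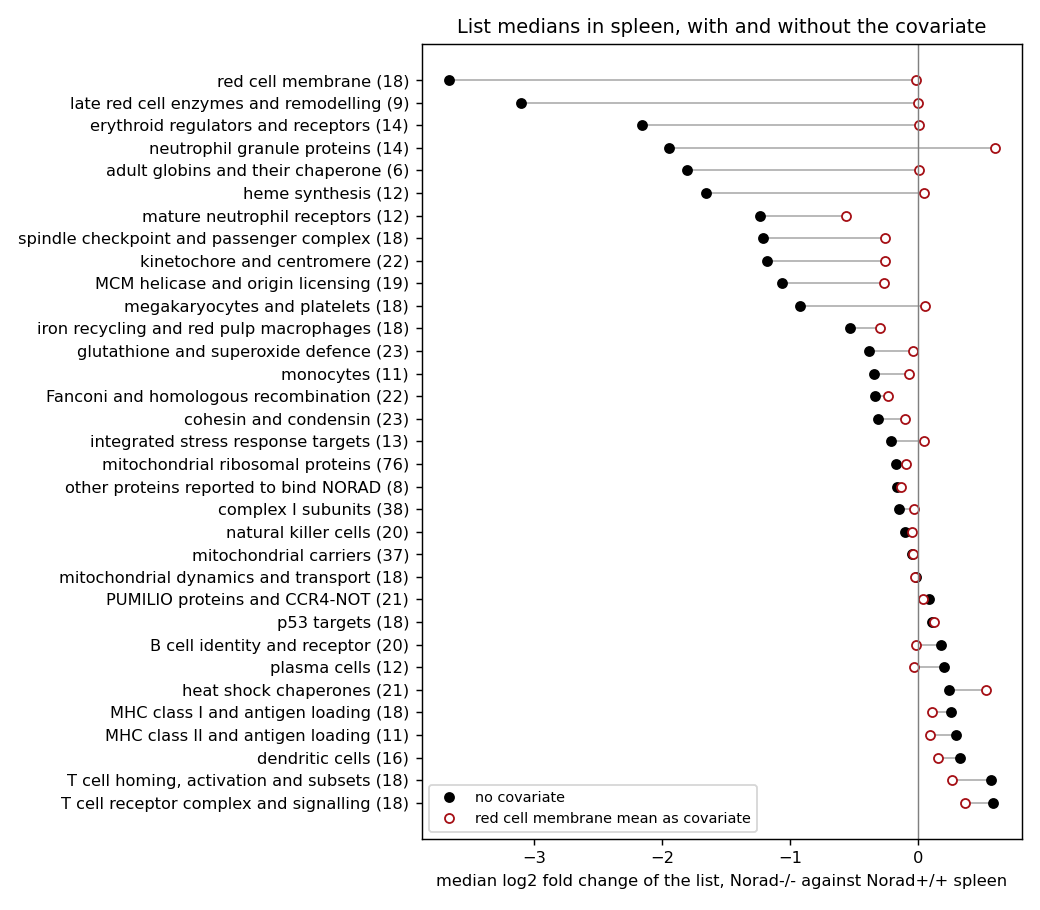
Median log2 fold change of each list (horizontal axis) in spleen without a covariate (filled) and with the mean of the red cell membrane list as a covariate (open), by list with the number of genes tested (vertical axis). The red cell membrane median lies near 0 with the covariate by construction, and the other red cell lists, which vary with it, also move to near 0. The mature neutrophil median stays at -0.57 and the T cell receptor median at 0.36.

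Heat shock chaperones were higher at a few members. Of 21 tested, 5 were higher and 0 lower at an unadjusted p of 0.05 or less, against 7.42% and 13.6% of all genes. The median was 0.24 (0.13 without *Norad*+/+ replicate 1 and without *Norad*-/- replicate 3). *Hspa1a* had 0.171, 0.289 and 0.480 FPKM against 2.15, 1.78 and 2.23 (log2 fold change 2.44, standard error 0.31, adjusted p = 0.107). Its near-identical neighbour *Hspa1b* had 0.285, 0.520 and 0.649 against 13.5, 12.4 and 2.67 (3.79, adjusted p = 0.138), and reads of the pair can be split between them. Both lay under 1 FPKM in every *Norad*+/+ library and met the mean of 1 FPKM only through their *Norad*-/- levels. Their place among the genes tested, and so among the 5, thus rests on the group where they are high. The *Norad*+/+ levels are also close to the pseudocount of 0.1, which limits the sizes. The other 3 were *Hsph1* (0.98), *Dnaja1* (0.87) and *Chordc1* (0.64), which with *Hspa1b* are named because they complete the count. The most abundant members overlapped, among them *Hspa8*, the constitutive HSC70, with 132, 175 and 250 against 210, 238 and 296. With the red cell covariate 12 of the 21 were higher (median 0.53), in a fit where 294 of all 12397 genes were higher. Of 18 tested p53 targets 3 were higher and 1 lower, against 7.42% and 13.6% of all genes. Their median was 0.11, with 0.05 without *Norad*+/+ replicate 1 and 0.07 without *Norad*-/- replicate 2. The higher were *Sesn1*, *Polk* (0.27) and *Zmat3* (0.26) and the lower *Gtse1* (-1.20), all but *Sesn1* named to complete the counts. Of 13 targets of the integrated stress response 1 was higher, *Ddit4*, an inhibitor of mTORC1, with 55.9, 51.1 and 56.99 against 83.4, 78.1 and 63.2 (0.45), and 1 was lower, *Asns*, given above, no more than the shares of all genes. The median was -0.21, -0.34 without *Norad*+/+ replicate 1 and -0.0087 without *Norad*+/+ replicate 3.

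For mitochondrial ribosomal proteins, complex I, carriers and dynamics, the share of genes called lower lay near the 13.6% of all genes or under it. It lay above that for the TCA cycle and for glutathione defence. Of the 12397 genes tested, 6669 lay below 0 and 5728 above. Of 76 mitochondrial ribosomal protein genes 10 were lower and 0 higher (median -0.17), with 61 below 0 and 15 above. Of 38 complex I subunits 3 were lower and 0 higher (median -0.15), with 33 below 0 and 5 above. These medians were -0.05 and -0.03 without *Norad*+/+ replicate 3 and -0.26 and -0.24 without *Norad*+/+ replicate 1. Of 37 mitochondrial carriers 6 were lower and 1 higher (median -0.05), and of 18 genes of mitochondrial dynamics and transport 1 was lower and 0 higher (median -0.02). With each library left out these ran from -0.08 to 0.00 and from -0.07 to 0.03. Of 24 genes of the TCA cycle and pyruvate dehydrogenase 7 were lower and 1 higher (median -0.13). Groups did not overlap on the lower side at 12 of them, against 14.9% over all genes, and on the higher side at 1. Of 23 genes of glutathione and superoxide defence 8 were lower and 1 higher, *Prdx1*, a peroxiredoxin (0.47), named to complete the count (median -0.39). *Gpx1*, a glutathione peroxidase abundant in red cells, had 671, 1015 and 1548 FPKM against 326, 438 and 922, with overlapping groups.

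The PUMILIO proteins and the CCR4-NOT complex moved little. Of 21 tested genes 1 was higher and 1 lower at an unadjusted p of 0.05 or less, with a median of 0.09. *Pan3*, a subunit of another deadenylase, had 44.7, 45.2 and 39.6 FPKM against 54.7, 53.2 and 53.2 (log2 fold change 0.32). The lower one was *Rqcd1*, a CCR4-NOT subunit, with 14.8, 16.6 and 18.1 against 13.4, 13.7 and 13.6 (-0.28), named to complete the count. Of 8 other proteins reported to bind NORAD 2 were lower (median -0.17, with -0.27 without *Norad*+/+ replicate 1 and -0.26 without *Norad*-/- replicate 2), *Topbp1* (-0.44) and *Aldh18a1* (-0.60), named to complete the count, and *Alyref*, an mRNA export adaptor, had 33.0, 33.9 and 59.2 against 32.6, 25.6 and 31.2 (unadjusted p above 0.05). *Cnbd2* and *Aar2*, which lie on the sides of *Norad*, had overlapping groups. *Epb41l1*, which the authors examined with *Cnbd2* as a neighbour of *Norad*, is not reported here. *Cnbd2* (chr2:156312299-156375638) had 2.94, 2.38 and 2.23 against 2.43, 2.303 and 2.05 (-0.14), and *Aar2*, a splicing factor gene (chr2:156547584-156568972), had 8.32, 7.46 and 5.15 against 4.28, 5.08 and 8.19 (-0.28). *Nnt*, a mitochondrial transhydrogenase that the C57BL/6J strain carries in mutant form, had 5.27, 4.57 and 4.81 against 4.35, 4.84 and 4.37.

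Genes were then sorted by how many PREs their longest annotated 3′ UTR held, since PUMILIO binds them there. The median log2 fold change was -0.03 for 8674 genes with no PRE, 0.00 for 2095 genes with 1, 0.01 for 621 with 2 and 0.03 for 310 with 3 or more. Lower at an unadjusted p of 0.05 or less stood 14.01%, 13.4%, 12.6% and 13.5% of these genes, and higher 7.37%, 8.02%, 6.92% and 4.84%. Over all genes these shares were 13.6% and 7.42%. Log2 fold changes below 0 were held by 56.0%, 49.5%, 49.6% and 41.6% of the classes in the same order. Median 3′ UTR lengths also differed, at 895, 1922, 2464 and 3789 bases, and their part in the result was not tested.

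Whether a genotype difference in spleen differed from that in brain was tested as an interaction over 10481 genes expressed in both tissues, and 2 passed (0.0191%). *Rab31*, a GTPase of endosome traffic, had 7.86, 9.27 and 9.24 FPKM in *Norad*+/+ and 6.23, 6.98 and 7.45 in *Norad*-/- spleen (log2 fold change -0.35), and 16.1, 17.6 and 13.4 against 31.0, 30.8 and 32.5 in brain (1.004). *Nfatc2*, a transcription factor of activated T cells, had 4.43, 4.83 and 4.57 against 7.80, 10.4 and 7.94 in spleen (0.89), and 3.35, 3.78 and 2.68 against 1.48, 1.82 and 1.94 in brain (-0.86). The difference was -1.35 for *Rab31* and 1.75 for *Nfatc2* (standard errors 0.16 and 0.22, adjusted p = 0.0438 for each). Groups did not overlap in either tissue for either gene, and the directions were opposite. *Hspa1b*, shown for its opposite directions after its values were seen, had 4.94, 3.85 and 1.25 against 0.490, 0.426 and 0.813 in brain, and its difference of 5.98 did not pass (adjusted p = 0.0983). Of the lists above, the T cell receptor list had a median of 0.07 in brain over the 4 members tested in both tissues.

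**Figure D5:**
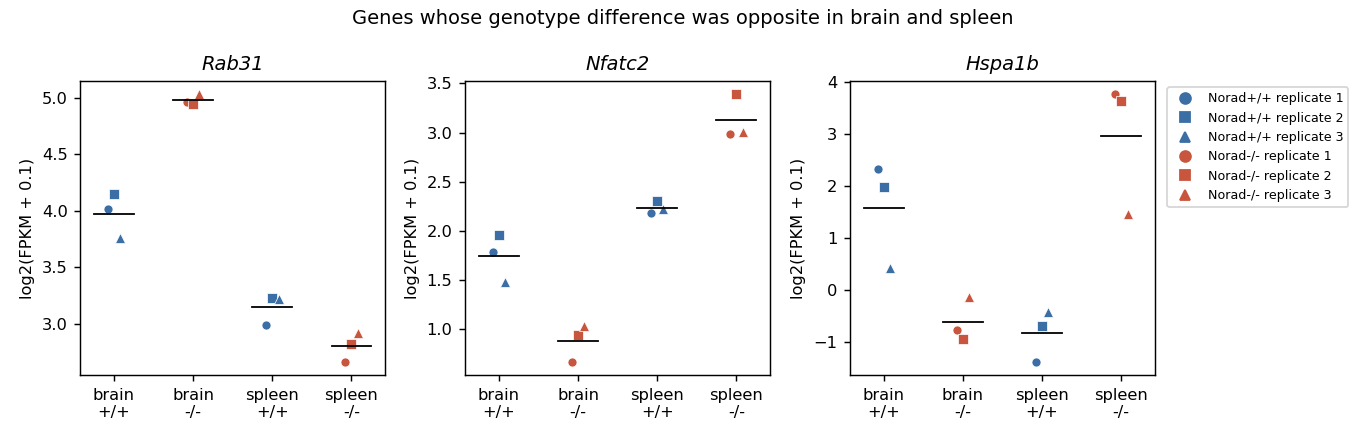
Levels as log2(FPKM + 0.1) (vertical axes) of *Rab31*, *Nfatc2* and *Hspa1b* in brain and spleen by genotype (horizontal axes). Points are libraries, with the shape giving the replicate number, and lines are means of 3. *Rab31* is higher in *Norad*-/- brain and lower in *Norad*-/- spleen, and *Nfatc2* and *Hspa1b* are the other way round.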

How the data were processed

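RNA of brain and spleen was sequenced by the authors as 75-base single reads from stranded mRNA libraries. After quality filtering (NGS QC Toolkit), TopHat2 2.0.12 placed the reads on GRCm38 and multiply mapped reads were dropped. Their own tests ran in edgeR 3.8.6 on featureCounts 1.4.6 output, which was not used here. The deposited values are FPKM, credited to StringTie 1.2.2 in the submitters' processing notes, for 24062 genes, and 0 value columns belong to no sample. Which annotation gave the FPKM is not given in the sources used here. Of the symbols, 23661 matched 1 gene of GENCODE M21, 914 of them by an older symbol.

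FPKM hold no counts, so log2(FPKM + 0.1), which understates changes of low genes, was tested with limma 3.58.1 (R 4.3.3) with a variance trend, two-sided, adjusted by Benjamini-Hochberg over all genes whose FPKM averaged at least 1 across the 6 spleen libraries. The interaction used all 12 libraries and genes with that mean in both tissues. Each library is taken as 1 mouse, and p-values measure the spread between 3 mice per group. Whether brains and spleens came from the same mice is not given in the sources used here. Depth rests on the step of 1 read at genes with 1 GENCODE transcript, where 32.6% to 35.5% of low values were whole reads within 2%, so it is an estimate and counting intervals are not given.

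The genes named are those past an adjusted p of 0.05, in each direction the 10 smallest p among genes with non-overlapping groups and the 5 largest changes among such genes that averaged 10 FPKM or more with unadjusted p up to 0.05, the 4 most abundant genes of each list (not each is printed, and some are not reported here), the neighbours of *Norad* and *Nnt*. Others are named where the text says so. Gene models without a symbol are not named. The genes, lists and tests were chosen with earlier results of these data known. PREs were counted on the transcript strand in the longest annotated 3′ UTR. The steps were tested on simulated data. Alternatives were pseudocounts of 1 and 0.01 FPKM, a mean of at least 5 FPKM, no filter, rescaling to TPM, quantile normalization, other variance models, array weights, a replicate block, a red cell covariate, a relaxed PRE and leaving out each library. Tables were made with Python 3.11.15 and pandas 2.3.3.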

Additional observations from a re-analysis of the deposited data

Results flagged for a closer look

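The genotype differences of 2 genes differed between spleen and brain by the interaction test of limma (adjusted p = 0.0438 for each, 3 mice per group). For *Rab31* the log2 fold change in spleen minus that in brain was -1.35, with all 3 *Norad*-/- spleens below and all 3 *Norad*-/- brains above their *Norad*+/+ libraries. For *Nfatc2* it was 1.75, with the directions the other way round. *Rab31* passed the adjusted threshold in 12 of 22 other settings and *Nfatc2* in 9 of 21, and both kept their direction in all of them. Without *Norad*-/- spleen replicate 3 the interaction passed at 130 genes, and without *Norad*-/- brain replicate 1, 2 or 3 at 0.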

How the results depend on the processing

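Genes past the adjusted threshold in spleen numbered 4 in the fit reported first (1 higher, 3 lower). They numbered 2 with no filter, with TPM and with quantile normalization (0 higher each), 0 were higher without the variance trend, and 1 passed with the red cell covariate (1 lower). Array weights gave 4730 (2069 higher, 2661 lower), with 6109 at an unadjusted p of 0.05 or less (2867 higher, 3242 lower) and 2366 in the interaction. Their estimation did not converge and gave *Norad*+/+ replicate 2 a weight of 22.6, so these counts rest on that library. Unadjusted counts were 738 with the covariate (294 higher, 444 lower), against 2600, and the higher genes numbered 1527 with TPM and 1611 with quantile normalization, against 920. Leaving out each library gave 2 to 93 genes past the adjusted threshold (0 to 17 higher, 1 to 76 lower) and 1354 to 3520 at the unadjusted one (473 to 1129 higher, 816 to 2391 lower). The interaction passed at 2 genes, at 1 with a mean of at least 5 FPKM, 0 with no filter, 5 with TPM, 4 with quantile normalization, and 0 to 130 with each library left out. With the relaxed PRE the class medians were -0.04, -0.03, -0.00 and 0.02. The cause of these changes was not tested.

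With a replicate block 1 gene passed the adjusted threshold (0 higher, 1 lower), 2875 the unadjusted one, and 0 the interaction. Deviations of same-numbered libraries from their group means correlated at 0.338, -0.147 and 0.290, and 3 of 6 libraries correlated best with their own number. With 3 libraries per group this cannot settle whether the numbers pair the mice.

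Of 1887 other fits of the genes named, 17 turned the sign of the log2 fold change. With the red cell covariate these were *Aar2* (0.10), *Cd79a* (-0.12), *Fth1* (0.094), *Ftl1* (0.19), *Gpx1* (0.12), *Hmox1* (0.15), *Lcn2* (1.03), *Ngp* (1.52), *Ppbp* (0.011) and *S100a8* (0.033). *Cnbd2* turned with quantile normalization (0.011), *Nnt* with TPM (0.0087) and quantile normalization (0.013), and *Ly6c2*, near 0 throughout, with array weights (-0.35) and with a library left out (-0.092 to 0.22 over the 6). Of 595 other list medians 16 turned sign, among them granule proteins with the covariate (0.60). Depth limits low genes most, and 3 mice per group with 1 library far from its group leave wide errors for red cell and granule genes.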
